A study of Mus musculus with 2 samples.

Results

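Axon guidance ligands and their receptors are described here in stromal and endothelial cells of the adult mouse bone marrow. The set holds every gene whose symbol begins as a semaphorin, plexin, Slit, Robo, netrin, Unc5, ephrin or Eph receptor followed by its number or letter. This rule found 69 symbols, carried by 71 of the 27999 gene identifiers in the deposited matrix, because Ntn5 stands under 3 identifiers. By family these were 20 semaphorins, 9 plexins, 3 slits, 4 Robo receptors, 5 netrin identifiers, 4 Unc5 receptors, 8 ephrins and 14 Eph receptors. The remaining 4 matched by letters alone, namely Unc5cl and the plexin antisense RNAs Plxna4os1, Plxna4os2 and Plxna4os3. The rule reads symbols and no measured value, but the set was proposed with earlier results of these data known.

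Droplet single-cell RNA sequencing was done on 2 libraries, 1 of LepR-Cre;tdTomato+ bone marrow cells (LepR_tdT) and 1 of bone marrow endothelial cells (EC). The donors of both libraries were LepR-Cre;LSL-tdTomato mice of the C57Bl/6JCrl strain, aged 3 to 4 months, so the endothelial library carried the reporter alleles as well. In such mice Cre made under the leptin receptor gene switches on the red protein tdTomato, which stays on in the progeny of a cell that once made Cre. The number of animals behind each library, and any pooling, are not given in the sources used here. The protocol texts number their samples in overlapping ranges, tie a tamoxifen gavage and a stem cell stain to some of those numbers and state no gate, so the handling of each library is taken from its population label only. With 1 library for each population there is no replicate, and population, preparation and sequencing library cannot be told apart in any comparison between the libraries.

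Guidance cues were first studied in the nervous system, where they attract or repel growing axons, and many also act in vessels, bone and blood. Semaphorins signal through plexins, and most secreted class 3 semaphorins need a neuropilin as co-receptor. Slits bind Robo receptors such as Robo1 and Robo2, and netrins bind Dcc, neogenin or Unc5 receptors. Ephrins, which stay on the cell surface, bind Eph receptors on the neighbouring cell. In mouse vessels Efnb2 is known as an arterial gene and its receptor Ephb4 as a venous one, and Robo4 is known as a Robo receptor of endothelium.

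The LepR_tdT library held 18139911 UMIs (unique molecular identifiers, each a counted molecule) over its 4250 cells, at a median of 4347 per cell. The EC library held 14111524 UMIs over 4536 cells, at a median of 3084.5. The cells of both libraries were clustered together, without any guidance gene, and their names come from other marker genes. In the LepR_tdT library 2915 cells were stromal-like, 259 osteolineage-like, 59 endothelial-like and 272 formed a stromal cluster led by Cxcl5 and Kit. In the EC library 3671 cells were endothelial-like, of which 292 were arterial-like and 3379 sinusoidal-like. The 10 stromal markers summed to 49667 CPM (UMIs per 1000000 UMIs of the class) in stromal-like cells and to 388 CPM in endothelial-like cells, where Pdgfrb was at 0. The 9 endothelial markers summed to 26.7 CPM in stromal-like cells, with none at 0, and to 7721 CPM in endothelial-like cells. Shallow or mitochondrial clusters of 684 LepR_tdT and 738 EC cells stayed unnamed, and 42 barcodes occurred in both libraries. Without those barcodes the comparison of stromal-like with endothelial-like cells gave 17 members higher in stromal-like versus 16 higher in endothelial-like cells, against 18 and 16 with them.

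Of the 71 identifiers, 8 had no UMI in any cell and 25, these included, had fewer than 20. The 24 members that reached 20 CPM in stromal-, osteolineage-, arterial- or sinusoidal-like cells are named with their values: 10 semaphorins, 4 plexins, 2 slits, Robo4, Unc5b, 4 ephrins and 2 Eph receptors. No netrin reached that level. Levels are given as CPM and are compared between classes for a given gene, never between genes. Intervals in parentheses are exact 95% intervals (Poisson for a CPM, conditional binomial for a ratio, Clopper-Pearson for a share), and all of them cover counting error only.

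**Figure D1:**
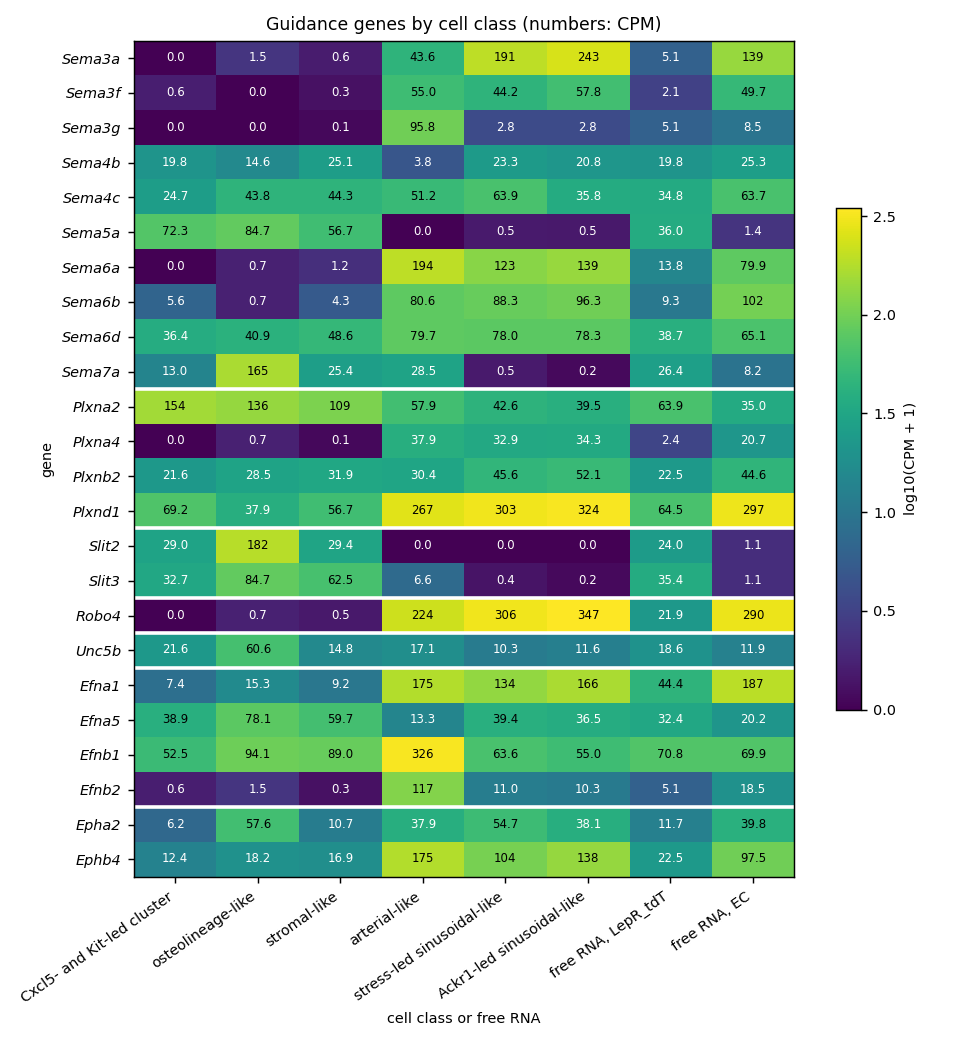
Level of the 24 named guidance genes (rows, grouped by family) in 6 cell classes and in the free RNA of each library (columns). Printed numbers are CPM and colour is log10(CPM + 1). Slit2, Slit3 and Sema5a stood higher in the LepR_tdT classes, and Robo4, Sema3a and Sema6a in the EC classes.

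The promoters of 4 members whose level differed strongly between classes are shown first, so that their make-up can be read beside the levels below. They are Efnb2 and Sema3g (higher in arterial-like cells), Robo4 (higher in endothelial-like cells) and Slit2 (higher in stromal-like and highest in osteolineage-like cells). Each sequence comes from RefSeq on GRCm38.p6, is written 5′ to 3′ on the strand of the gene, and ends at the base before the annotated gene start. The places are chr8:8661243-8661492 on the minus strand for Efnb2, chr14:31217623-31217859 on the plus strand for Sema3g, chr9:37401722-37401896 on the plus strand for Robo4 and chr5:47982905-47983137 on the plus strand for Slit2. Capitals mark the searched motifs on either strand, which are GGGCGG (a GC box, CCGCCC on the other strand) and ACAAT (a core of SOX sites, ATTGT on the other strand).
Efnb2 promoter: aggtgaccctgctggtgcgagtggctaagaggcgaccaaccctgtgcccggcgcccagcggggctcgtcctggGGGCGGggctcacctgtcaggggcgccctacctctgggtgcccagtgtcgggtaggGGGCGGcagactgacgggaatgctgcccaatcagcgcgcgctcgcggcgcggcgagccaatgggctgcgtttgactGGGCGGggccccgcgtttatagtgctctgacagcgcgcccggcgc
Sema3g promoter: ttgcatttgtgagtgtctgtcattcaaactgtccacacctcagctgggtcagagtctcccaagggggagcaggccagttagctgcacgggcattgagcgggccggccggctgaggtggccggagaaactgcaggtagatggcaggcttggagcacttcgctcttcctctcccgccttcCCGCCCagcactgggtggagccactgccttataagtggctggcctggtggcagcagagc
Robo4 promoter: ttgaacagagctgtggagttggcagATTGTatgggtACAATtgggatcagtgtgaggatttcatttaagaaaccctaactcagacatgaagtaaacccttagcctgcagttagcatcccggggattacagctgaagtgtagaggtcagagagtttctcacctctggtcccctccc
Slit2 promoter: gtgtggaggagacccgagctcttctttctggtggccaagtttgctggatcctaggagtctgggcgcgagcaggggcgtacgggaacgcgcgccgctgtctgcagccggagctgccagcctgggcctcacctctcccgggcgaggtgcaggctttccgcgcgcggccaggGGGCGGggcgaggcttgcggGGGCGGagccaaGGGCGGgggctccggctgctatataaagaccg

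The full windows of 250 bases before the RefSeq start held 27 CpG pairs and 72% G and C for Efnb2, 8 and 60.4% for Sema3g, 2 and 49.6% for Robo4, and 25 and 69.6% for Slit2. Robo4 was thus the poorest in CpG of these 4 and had no GC box, while the other 3 had at least 1. Of the 24 named members, 21 had a RefSeq promoter entry, with 27 windows in all. Their median was 17 CpG pairs and 64.4% G and C, against 6 pairs and 52.4% over all 32851 windows of the same table. A GC box stood in 23 of the 27 windows (85.2%), against 32.7% of all windows. The named members were chosen for their level in these cells, whereas all windows were taken at any level. The part of that choice in these contrasts was not tested. The other searches, on both strands, gave lower shares among the 27 windows and rest on few of them. CCGGAA (an ETS core) stood in 2 (7.41%), against 12% of all windows, and ACAAT in 3 (11.1%), against 27.7%. TGTGGT (a RUNX core) stood in 2 (7.41%), against 14%, and AACAGGAA (a joint FOX and ETS motif) in 0, against 2.25%. CCGGAA and AACAGGAA can share bases, and these letter matches are descriptions of the sequence only.

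Stromal-like and endothelial-like cells differed in most of the guidance genes that could be measured, in both directions. A member was measured when both classes together held at least 20 UMIs, and was called higher at a ratio of at least 2 with an interval without 1. Of 43 measured members, 18 were higher in stromal-like cells (41.9%), 16 were higher in endothelial-like cells (37.2%) and 9 in neither. Over all 12844 genes measured the shares were 21.3% and 17.7%. The median log2 ratio of stromal-like over endothelial-like cells was 0.29 for the members and 0.10 for all genes, on the scale in which a class under 3 UMIs is set to 3. Among members with at least 100 UMIs the number higher in stromal-like cells was 9 and the median was -0.59, so the sign of the members' median depended on that limit.

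**Figure D2:**
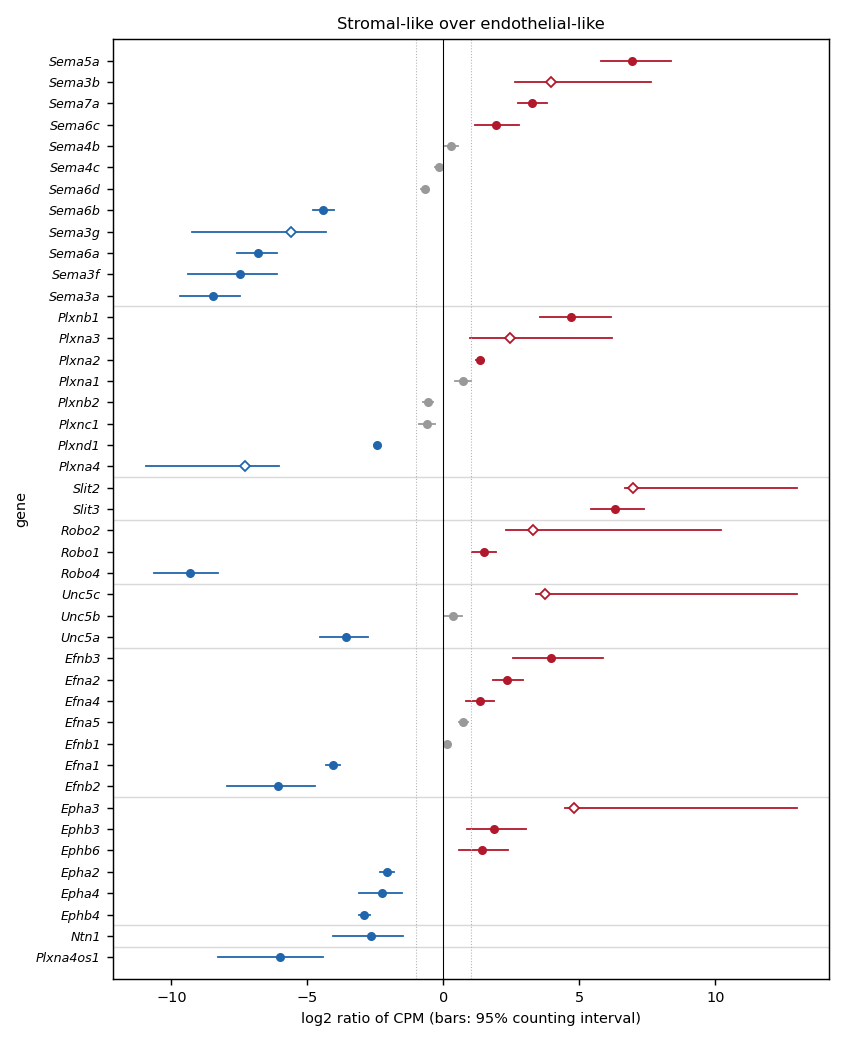
Log2 ratio of CPM, stromal-like over endothelial-like, for the 43 measured members, grouped by family. Points are ratios and bars 95% counting intervals, cut at the edge of the plot where they have no bound. Red is at least 2-fold higher in stromal-like, blue at least 2-fold higher in endothelial-like and grey neither, dotted lines mark 2-fold, and open diamonds mark a class under 3 UMIs set to 3.

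Among the semaphorins, 4 of 12 measured genes were higher in stromal-like versus 5 in endothelial-like cells, beside 21.3% and 17.7% of all genes. Sema5a, a transmembrane semaphorin with thrombospondin repeats, had 56.7 CPM (52.8 to 60.8) in stromal-like versus 0.468 CPM, 6 UMIs, in endothelial-like cells. The ratio was 121 (55.4 to 331). Sema7a, which is held on the surface by a lipid anchor and can signal through integrins, had 25.4 CPM in stromal-like versus 2.65 CPM in endothelial-like cells, a ratio of 9.57 (6.72 to 14.0). Most of its endothelial-like UMIs lay in arterial-like cells, whose level is given below and was not under that of stromal-like cells. The other 2 were Sema3b, with 51 UMIs in stromal-like versus 2 in endothelial-like cells and a ratio of 23.4 (6.16 to 199), and Sema6c, with a ratio of 3.84 (2.24 to 6.95). Both were below 20 CPM in every class named here.

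The 5 semaphorins called higher in endothelial-like cells were of class 3, which is secreted, and of class 6, which is transmembrane. Sema3a, a repellent for many axons that signals through Nrp1 and A-type plexins, had 0.573 CPM (0.247 to 1.13) in stromal-like versus 204 CPM in endothelial-like cells, 356-fold higher in endothelial-like (180 to 826). Sema3f, known for its use of Nrp2, had 0.287 CPM in stromal-like versus 51.6 CPM in endothelial-like cells, 180-fold higher in endothelial-like (70.0 to 663). Sema3g had 2 UMIs in stromal-like versus 134 UMIs in endothelial-like cells, 72.9-fold higher in endothelial-like (19.8 to 608). In these 3 genes the stromal-like level was below that of the free RNA of the same library, which was 5.10 CPM for Sema3a and for Sema3g and 2.1 CPM for Sema3f.

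Sema6a and Sema6b are transmembrane ligands of A-type plexins. Sema6a had 1.22 CPM in stromal-like versus 136 CPM in endothelial-like cells, 112-fold higher in endothelial-like (69.7 to 192). Sema6b had 4.30 CPM in stromal-like versus 91.5 CPM in endothelial-like cells, 21.3-fold higher in endothelial-like (16.4 to 28.1). Sema4b, Sema4c and Sema6d stayed under 2-fold between the classes. Sema4b had 25.1 CPM in stromal-like versus 20.5 CPM in endothelial-like cells, with a ratio of 1.22 (1.04 to 1.44). Sema4c had 44.3 and 49.4 CPM in the same order of classes, with a ratio of 0.896 (0.801 to 1.00). Sema6d had 48.6 CPM in stromal-like versus 78.3 CPM in endothelial-like cells, with a ratio of 0.621 (0.562 to 0.685), which differed beyond counting error but by less than 2-fold.

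Both measured slits, the secreted ligands of Robo receptors, were higher in stromal-like cells, beside 21.3% of all genes. Slit2 had 410 UMIs or 29.4 CPM (26.6 to 32.4) in stromal-like cells and no UMI among the 12829721 UMIs of endothelial-like cells. Taking 3 UMIs over the endothelial-like class as the floor, stromal-like cells exceeded them at least 126-fold. Slit3 had 62.5 CPM (58.4 to 66.8) in stromal-like versus 0.779 CPM, 10 UMIs, in endothelial-like cells, a ratio of 80.2 (43.4 to 168). Of those 10 UMIs, 7 lay in arterial-like cells, at 6.64 CPM (2.67 to 13.7), and 3 in sinusoidal-like cells. The free RNA of the LepR_tdT library also carried both genes, Slit2 at 24.0 CPM and Slit3 at 35.4 CPM, whereas that of the EC library held 1.14 CPM of each.

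Netrins were scarce. Ntn1, the best known of these laminin-like secreted cues, was the only measured one, with 7 UMIs in stromal-like versus 41 UMIs in endothelial-like cells, 6.37-fold higher in endothelial-like (2.83 to 16.8). Ntn4 had 15 UMIs over all cells, too few to measure, and the 3 identifiers of Ntn5 had none.

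Of 7 measured ephrins, 3 were higher in stromal-like versus 2 in endothelial-like cells, beside 21.3% and 17.7% of all genes. Efna1, a lipid-anchored ligand of A-type Eph receptors, had 9.24 CPM in stromal-like versus 153 CPM in endothelial-like cells, 16.5-fold higher in endothelial-like (13.8 to 19.9). Efnb2, a transmembrane ligand of Ephb4, had 4 UMIs in stromal-like versus 248 UMIs in endothelial-like cells, 67.5-fold higher in endothelial-like (26.0 to 250). The ephrins higher in stromal-like cells were all under 20 CPM, namely Efnb3 (ratio 15.6, 5.83 to 59.0), Efna2 (ratio 5.09, 3.54 to 7.53) and Efna4 (ratio 2.54, 1.80 to 3.64). Efna5 and Efnb1 did not reach 2-fold. Efna5 had 59.7 CPM in stromal-like versus 35.9 CPM in endothelial-like cells (ratio 1.66, 1.48 to 1.87), and Efnb1 had 89.0 CPM in stromal-like versus 81.1 CPM in endothelial-like cells (ratio 1.10, 1.01 to 1.19).

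Among the receptors, plexins were split in the same way, with 3 of 8 measured genes higher in stromal-like versus 2 in endothelial-like cells. These counts stand beside 21.3% and 17.7% of all genes. Plxnd1, which can bind some class 3 semaphorins and is known for its part in vessel patterning, had 56.7 CPM (52.8 to 60.8) in stromal-like versus 310 CPM (301 to 320) in endothelial-like cells, 5.47-fold higher in endothelial-like (5.07 to 5.91). Plxna4 had 2 UMIs in stromal-like versus 436 UMIs in endothelial-like cells, 237-fold higher in endothelial-like (65.3 to 1965). The antisense gene Plxna4os1, which lies within Plxna4 on the opposite strand, had 3 UMIs in stromal-like versus 177 UMIs in endothelial-like cells, and since the strand setting of the counting is not given in the sources used here, their reads cannot be told apart with certainty. Plxna2, a receptor for class 6 and, with Nrp1, class 3 semaphorins, had 109 CPM (103 to 114) in stromal-like versus 42.4 CPM in endothelial-like cells, a ratio of 2.56 (2.32 to 2.83).

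The remaining plexins were lower or shared. Plxnb1, a receptor of Sema4d, had 12.2 CPM in stromal-like versus 0.468 CPM in endothelial-like cells, a ratio of 26.0 (11.7 to 72.0). Plxna3 rested on 18 UMIs in stromal-like versus 2 in endothelial-like cells, with a ratio of 8.27 (1.98 to 73.5), and its call was lost without the barcodes found in both libraries. Plxnb2 had 31.9 CPM in stromal-like versus 47.5 CPM in endothelial-like cells, Plxnc1, the receptor of Sema7a, had 12.0 CPM in stromal-like versus 18.2 CPM in endothelial-like cells, and neither reached 2-fold.

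All 3 measured Robo receptors differed. Robo4 had 7 UMIs or 0.501 CPM (0.202 to 1.03) in stromal-like versus 4092 UMIs or 319 CPM in endothelial-like cells, 636-fold higher in endothelial-like (308 to 1583). Robo1 and Robo2, receptors of the slits, went the other way at lower levels. Robo1 had 13.3 CPM in stromal-like versus 4.75 CPM in endothelial-like cells, a ratio of 2.80 (2.09 to 3.81). Robo2 had 32 UMIs in stromal-like versus 1 UMI in endothelial-like cells, a ratio of 29.4 (4.91 to 1198). Of the Unc5 receptors of netrins, Unc5a was 12.0-fold higher in endothelial-like cells (6.78 to 23.0), with 13 UMIs in stromal-like versus 143 in endothelial-like cells. Unc5c had 44 UMIs in stromal-like versus none in endothelial-like cells, so that stromal-like cells were higher by at least 13.5-fold. Unc5b, which in mouse vessels is known as a receptor of tip cells, had 14.8 CPM in stromal-like versus 11.5 CPM in endothelial-like cells and was called in neither.

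All 6 measured Eph receptors, which are receptor tyrosine kinases, differed, 3 in each direction. Ephb4 had 16.9 CPM (14.8 to 19.2) in stromal-like versus 126 CPM in endothelial-like cells, 7.46-fold higher in endothelial-like (6.51 to 8.59). Its exons overlap the gene Zan on the opposite strand. Epha2, a receptor of Efna1, had 10.7 CPM in stromal-like versus 45.4 CPM in endothelial-like cells, 4.22-fold higher in endothelial-like (3.52 to 5.09). Epha4 had 18 UMIs in stromal-like versus 80 UMIs in endothelial-like cells, 4.84-fold higher in endothelial-like (2.87 to 8.57). Those higher in stromal-like cells were low, namely Epha3 with 92 UMIs and none in endothelial-like cells (at least 28.2-fold), Ephb3 (ratio 3.68, 1.81 to 8.24) and Ephb6, which is known to lack kinase activity (ratio 2.70, 1.47 to 5.22).

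Some of these differences could also be read within 1 preparation, because 59 endothelial-like cells were found in the LepR_tdT library, in clusters shared with the EC library. Of these cells, 1 carried a barcode that also occurred in the EC library. They carried 8096 CPM of the endothelial markers and 2500 CPM of the stromal markers. Robo4 stood at 281 CPM (211 to 365) in these cells, Sema3a at 117 CPM (74.4 to 176), Sema6a at 148 CPM (99.1 to 212), Efna1 at 143 CPM (94.9 to 206) and Plxnd1 at 209 CPM (150 to 284). Each of these levels was above that of the stromal-like cells of the same library. Slit2 and Slit3 had no UMI in them, for which the upper end of the exact interval is 18.8 CPM, and Sema5a had 1 UMI. Against these 59 cells, 35 members were measured. Of them 5 were higher in stromal-like cells (14.3%, against 10% of the 11675 genes measured) and 8 higher in the endothelial-like cells (22.9%, against 8.97%). The median log2 ratio was -0.75 for the members and -0.37 for all genes, with a class under 3 UMIs set to 3. That floor is 15.3 CPM in these cells and 0.215 CPM in stromal-like cells, so the sign of these medians is not read as a result. Sema7a was no longer called higher in stromal-like (log2 ratio 0.73, -0.83 to 3.01), Efnb2, Plxna4, Sema3f and Sema3g had fewer than 20 UMIs in both classes together, and Efnb1, with 25.5 CPM in these cells, was called higher in stromal-like (log2 ratio 1.80, 0.58 to 3.43).

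Taking all cells of each library without any classes, 46 members were measured. Of these, 19 were higher in the LepR_tdT library (41.3%) and 16 higher in the EC library (34.8%), against 20.9% and 17.6% of the 13456 genes measured. The median log2 ratio, LepR_tdT over EC, was 0.49 for the members and 0.08 for all genes.

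Within the EC library, 7 of 30 measured members differed between arterial-like and sinusoidal-like cells. Sema7a, Sema3g, Efnb2 and Efnb1 were higher in arterial-like cells (13.3%, against 6.1% of all 11098 genes measured), and Sema3a, Sema4b and Efna5 were higher in sinusoidal-like cells (10%, against 3.59%). The other 23 were called in neither, among them every measured plexin, Robo, Unc5 and Eph receptor. All 7 called genes were ligands. The members' median log2 ratio, arterial-like over sinusoidal-like, was 0.06 and that of all genes 0.15. Scaling by TMM or by the median ratio instead of the class total moves all genes by 0.18 or 0.12 on the log2 scale in this comparison, and all 7 calls kept their direction under both. The split of endothelial-like cells into these vessel types was set after the clusters had been seen. The 10 arterial markers summed to 2573 CPM in arterial-like versus 631 CPM in sinusoidal-like cells. They also summed to 5003 CPM in stromal-like cells. The 10 sinusoidal markers summed to 7321 CPM in arterial-like versus 15688 CPM in sinusoidal-like cells, so the arterial-like class carried much sinusoidal marker RNA as well. Osteolineage markers summed to 9.49 CPM in arterial-like versus 4.93 CPM in sinusoidal-like cells, the stromal markers to 848 CPM and 346 CPM in the same order, and the part of such mixed RNA in these differences was not tested.

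Sema3g, a secreted semaphorin, had 101 UMIs or 95.8 CPM (78.0 to 116) in arterial-like versus 33 UMIs or 2.80 CPM (1.93 to 3.94) in sinusoidal-like cells, a ratio of 34.2 (22.9 to 52.3). Efnb2 had 117 CPM (97.0 to 139) in arterial-like versus 10.6 CPM (8.84 to 12.6) in sinusoidal-like cells, a ratio of 11.0 (8.5 to 14.2). In sinusoidal-like cells the level of Efnb2 was close to that of the granulocyte-like cells of the library, 10.7 CPM (3.47 to 24.9), and lay under that of its free RNA, 18.5 CPM. Efnb1, a transmembrane ligand of B-type Eph receptors, had 326 CPM (293 to 363) in arterial-like versus 59.1 CPM (54.8 to 63.7) in sinusoidal-like cells, a ratio of 5.52 (4.84 to 6.29). Sema7a had 30 UMIs or 28.5 CPM in arterial-like versus 4 UMIs in sinusoidal-like cells, a ratio of 83.8 (29.5 to 327). For Efnb1 the pooled endothelial-like level of 81.1 CPM, which hardly differed from that of stromal-like cells, thus averaged over vessel types that differed. The pooled level of Sema7a did so too, and its call as higher in stromal-like cells does not hold against arterial-like cells.

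Sema3a was the clearest opposite case, with 43.6 CPM (31.9 to 58.2) in arterial-like versus 218 CPM (210 to 227) in sinusoidal-like cells, 5-fold higher in sinusoidal-like (3.74 to 6.85). Granulocyte-like and erythroid-like cells of the same library held 19.2 CPM (8.80 to 36.5) and 22.9 CPM (9.21 to 47.2) of Sema3a, and the free RNA 139 CPM. Sema4b, a transmembrane semaphorin, had 4 UMIs in arterial-like versus 259 UMIs in sinusoidal-like cells, 5.80-fold higher in sinusoidal-like (2.24 to 21.4). Efna5 had 13.3 CPM in arterial-like versus 37.9 CPM in sinusoidal-like cells, 2.85-fold higher in sinusoidal-like (1.68 to 5.26).

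No measured receptor reached the call in this comparison. Ephb4 had 175 CPM (150 to 202) in arterial-like versus 122 CPM (116 to 128) in sinusoidal-like cells, with a ratio of 1.43 (1.22 to 1.67). Its known ligand Efnb2 differed 11.0-fold between the same classes. Robo4 had 224 CPM in arterial-like versus 327 CPM in sinusoidal-like cells (ratio 0.684, 0.597 to 0.780), and Plxnd1 had 267 CPM in arterial-like versus 314 CPM in sinusoidal-like cells (ratio 0.849, 0.749 to 0.959). Both excluded 1 by less than 2-fold. Among the ligands in neither group, Sema6a had 194 CPM in arterial-like versus 131 CPM in sinusoidal-like cells (ratio 1.48, 1.27 to 1.71), Efna1 had 175 and 151 CPM (ratio 1.16, 0.988 to 1.35), and Sema3f had 55.0 and 51.3 CPM (ratio 1.07, 0.805 to 1.41) in the same order. Ephb1 fell short of the 20 UMI limit, with 11 UMIs in arterial-like versus 1 UMI in sinusoidal-like cells, and is named here after its values were seen.

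**Figure D3:**
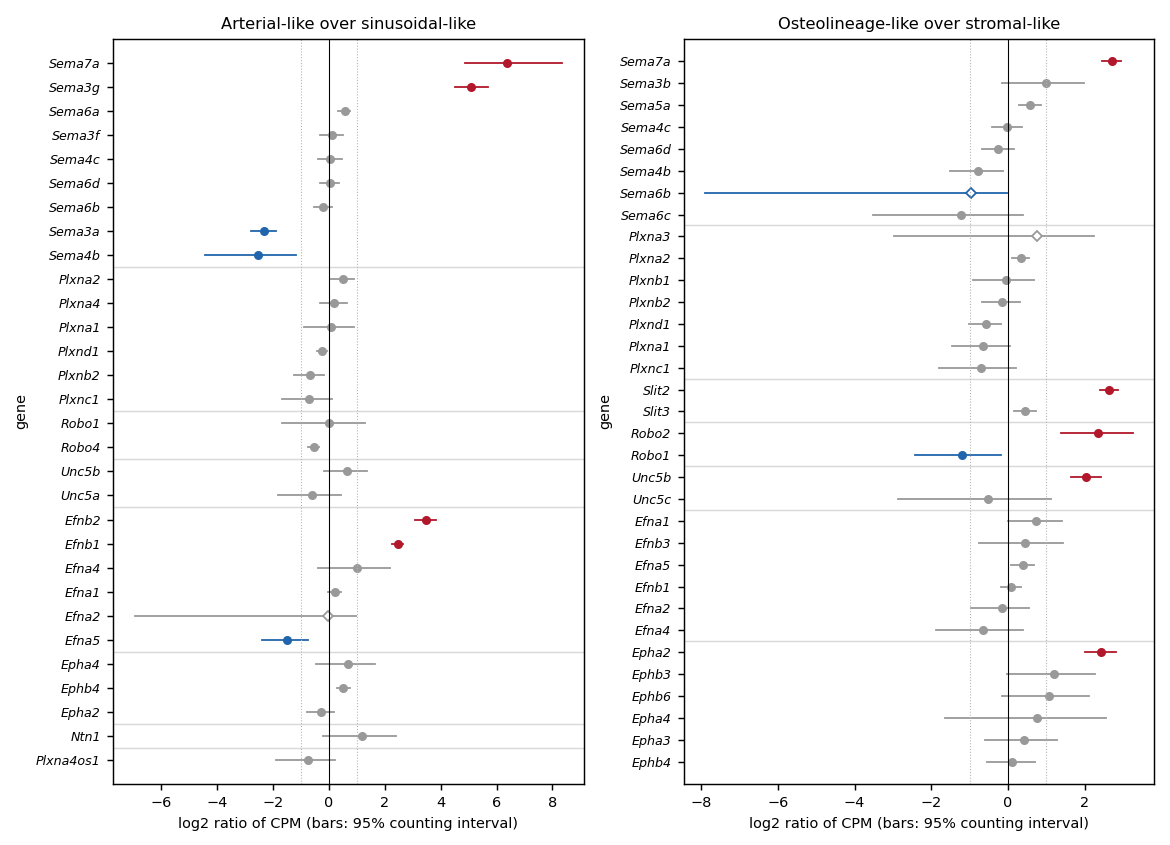
Log2 ratio of CPM within the EC library (left, arterial-like over sinusoidal-like, 30 members) and within the LepR_tdT library (right, osteolineage-like over stromal-like, 33 members). Points are ratios with bars for 95% counting intervals, red marks at least 2-fold higher in the class named first, blue in the class named second and grey neither, and open diamonds mark a class under 3 UMIs set to 3. Most members are grey in both panels.

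Sinusoidal-like cells came from 2 clusters, 1439 cells led by stress and immediate early genes and 1940 cells called Ackr1-led. The latter had Ackr1 among its 10 leading genes against all other cells, after others such as Cxadr, Nat8l and the member Sema3a. None of 29 measured members reached the call between them in either direction, against 1.9% of 10933 genes higher in the stress-led and 0.649% higher in the Ackr1-led cluster. The members' median log2 ratio, stress-led over Ackr1-led, was -0.10. Sema3a had 191 CPM in the stress-led and 243 CPM in the Ackr1-led cluster, and Sema4c had 63.9 CPM in the stress-led and 35.8 CPM in the Ackr1-led cluster (log2 ratio 0.84, 0.59 to 1.09).

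Within the LepR_tdT library, 5 of 33 measured members were higher in osteolineage-like than in stromal-like cells. They were Sema7a, Slit2, Epha2, Unc5b and Robo2 (15.2%, against 4.97% of the 11763 genes measured). Robo1 and Sema6b were called higher in stromal-like cells (6.06%, against 5.67%). Sema6b had 1 UMI in osteolineage-like versus 60 UMIs in stromal-like cells, 5.89-fold higher in stromal-like (1.02 to 236). With the osteolineage-like count set to the floor of 3 UMIs its log2 ratio was -0.97, under 2-fold, and the call was lost in 5 of the other settings tried. The median log2 ratio, osteolineage-like over stromal-like, was 0.33 for the members and -0.06 for all genes. Endothelial markers summed to 14.6 CPM in osteolineage-like cells, with Tek and Tie1 at 0, and to 26.7 CPM in stromal-like cells. Erythroid markers summed to 2949 CPM in osteolineage-like versus 193 CPM in stromal-like cells. Chondrocyte markers summed to 390 CPM in osteolineage-like cells, against 36.8 CPM in stromal-like cells, with Acan at 0 in both, and their part in these differences was not tested. Without the 2 osteolineage-like cells that had 100 or more UMIs of blood cell markers, the counts were again 5 and 2. This comparison shares its stromal-like cells with the one against endothelial-like cells.

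Slit2 had 250 UMIs or 182 CPM (161 to 207) in osteolineage-like versus 29.4 CPM (26.6 to 32.4) in stromal-like cells, a ratio of 6.21 (5.29 to 7.29). Slit3 did not follow it, with 84.7 CPM (69.9 to 102) in osteolineage-like versus 62.5 CPM in stromal-like cells and a ratio of 1.35 (1.11 to 1.65). Sema7a had 165 CPM (144 to 188) in osteolineage-like versus 25.4 CPM (22.8 to 28.1) in stromal-like cells, a ratio of 6.5 (5.48 to 7.71). The other 3 members of this group were receptors. Epha2 had 57.6 CPM (45.6 to 71.8) in osteolineage-like versus 10.7 CPM in stromal-like cells, a ratio of 5.36 (4.03 to 7.09). Unc5b had 60.6 CPM (48.2 to 75.1) in osteolineage-like versus 14.8 CPM in stromal-like cells, a ratio of 4.10 (3.14 to 5.32).

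Robo1 and Robo2 differed in opposite directions. Robo2 had 16 UMIs or 11.7 CPM in osteolineage-like versus 32 UMIs or 2.29 CPM in stromal-like cells, a ratio of 5.09 (2.61 to 9.56). Robo1 had 8 UMIs or 5.84 CPM in osteolineage-like versus 186 UMIs or 13.3 CPM in stromal-like cells, 2.28-fold higher in stromal-like (1.13 to 5.37). The boundary of the osteolineage-like class mattered for the size of the ratios. At a clustering resolution of 1.0, where a further cluster takes that name, the log2 ratio was 1.38 (1.15 to 1.61) for Slit2 instead of 2.63, 1.64 (1.39 to 1.89) for Sema7a instead of 2.70 and 1.02 (0.68 to 1.36) for Unc5b instead of 2.04, with all 3 still called. Robo2 and Robo1 were not called at that resolution, with log2 ratios of 0.58 and -0.09.

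Other members stayed under 2-fold between these classes. Plxna2 had 136 CPM in osteolineage-like versus 109 CPM in stromal-like cells (ratio 1.26, 1.07 to 1.46), Efnb1 had 94.1 and 89.0 CPM (ratio 1.06, 0.876 to 1.27) and Sema4c had 43.8 and 44.3 CPM (ratio 0.989, 0.746 to 1.29) in that order. Sema5a had 84.7 CPM in osteolineage-like versus 56.7 CPM in stromal-like cells (ratio 1.49, 1.22 to 1.82), and Efna5 had 78.1 CPM in osteolineage-like versus 59.7 CPM in stromal-like cells (ratio 1.31, 1.06 to 1.6). Plxnd1 had 37.9 CPM in osteolineage-like versus 56.7 CPM in stromal-like cells (ratio 0.670, 0.496 to 0.887). These differences exceeded counting error for Plxna2, Sema5a, Efna5 and Plxnd1 and stayed under 2-fold.

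In the stromal cluster led by Cxcl5 and Kit, none of 33 measured members was higher than in stromal-like cells, against 3.06% of 11741 genes, and 2 were lower, against 3.38%. These were Epha3, with 1 UMI in the cluster and 92 UMIs in stromal-like cells, and Unc5c, with none in the cluster and 44 UMIs in stromal-like cells. Sema5a had 72.3 CPM (59.8 to 86.6) in the cluster and 56.7 CPM in stromal-like cells, and Plxna2 had 154 CPM (135 to 174) in the cluster and 109 CPM in stromal-like cells. Slit3 had 32.7 CPM (24.5 to 42.8) in the cluster and 62.5 CPM in stromal-like cells.

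**Figure D4:**
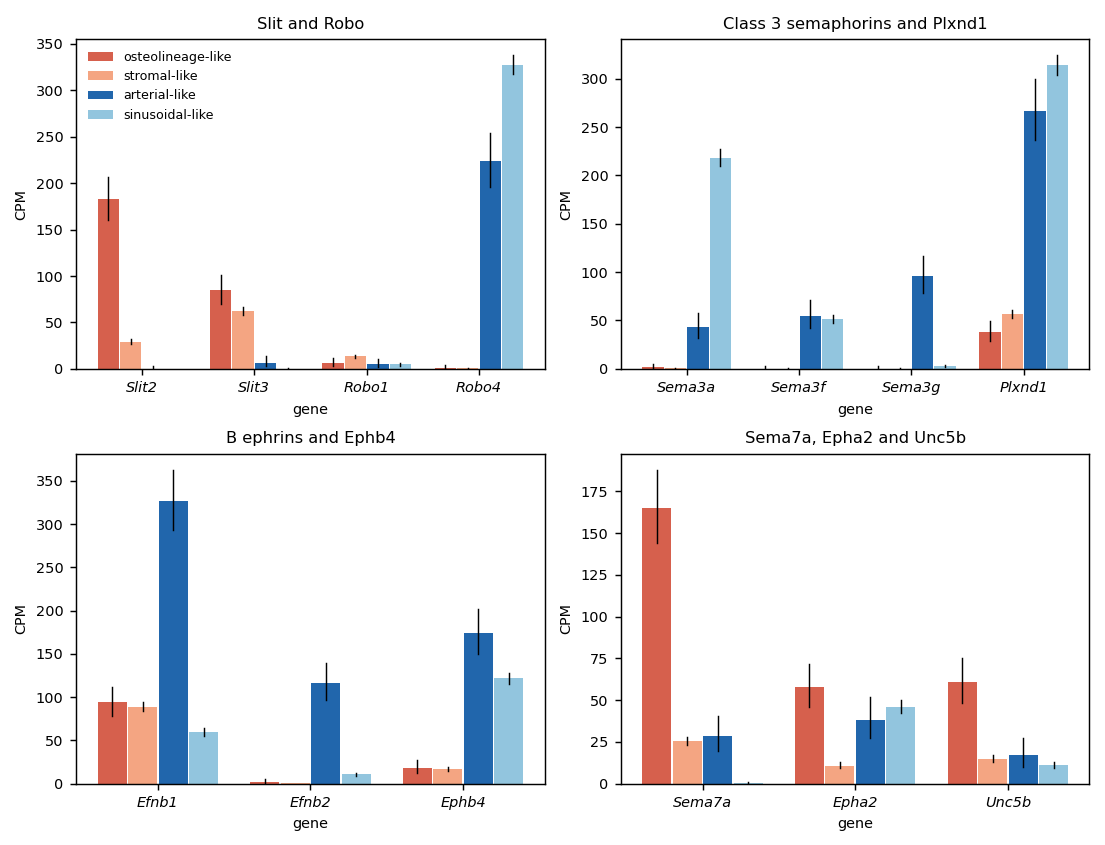
CPM of ligands and receptors set side by side in osteolineage-like, stromal-like, arterial-like and sinusoidal-like cells, with bars for the level and lines for the 95% Poisson interval. Slit2 and Slit3 stand in the stromal classes and Robo4 in the vessel classes. Efnb2 reaches 117 CPM in arterial-like cells, while Ephb4 is present in both vessel classes.

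Ligands and receptors of these families were also set side by side over the 4 classes. Slit2 had 182 CPM in osteolineage-like, 29.4 CPM in stromal-like and no UMI in arterial- or sinusoidal-like cells, while Robo4 had 0.730, 0.501, 224 and 327 CPM in the same order of classes. Robo1, a receptor of the slits, had 5.84, 13.3, 4.74 and 4.76 CPM in that order. Sema3a had 1.46 CPM in osteolineage-like, 0.573 CPM in stromal-like, 43.6 CPM in arterial-like and 218 CPM in sinusoidal-like cells. Its co-receptor Nrp1, which also binds Vegfa, had 275 CPM in osteolineage-like, 595 CPM in stromal-like, 609 CPM in arterial-like and 356 CPM in sinusoidal-like cells, and was thus present in all 4. Nrp2 had 237, 114, 268 and 284 CPM in that order. These are RNA levels of dissociated cells. No binding of a ligand to a receptor, that of Slit2 to Robo4 included, and no contact between cells was measured.

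To set the members beside the rest of the pathway, 29 co-receptors and 51 signal transducers were read in the same way. Of 21 measured co-receptors, 12 were higher in stromal-like versus 6 in endothelial-like cells, with a median log2 ratio of 1.52. These counts stand beside 21.3% and 17.7% of all genes and a median of 0.10. Neo1, the netrin and repulsive guidance receptor neogenin, had 20.9 CPM in stromal-like versus 2.26 CPM in endothelial-like cells (ratio 9.25, 6.31 to 14.1), and its ligand Rgma had 24.9 CPM in stromal-like versus 3 UMIs in endothelial-like cells (ratio 106, 36.1 to 518). Chl1, a cell adhesion molecule that binds neuropilin, had 847 UMIs in stromal-like versus none in endothelial-like cells, so that stromal-like cells were higher by at least 260-fold. The heparan sulfate carrier Sdc2 had 375 CPM in stromal-like versus 3 UMIs in endothelial-like cells. Flrt3, a fibronectin and leucine-rich transmembrane protein that binds Unc5 and Robo receptors, went the other way, with 4 UMIs in stromal-like versus 570 UMIs in endothelial-like cells, 155-fold higher in endothelial-like (60.2 to 571).

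Of 45 measured transducers, 9 were higher in stromal-like versus 18 in endothelial-like cells, with a median log2 ratio of -0.43, beside the same values for all genes. Srgap1, a GTPase-activating protein that acts downstream of Robo, had 0.501 CPM in stromal-like versus 83.5 CPM in endothelial-like cells, 166-fold higher in endothelial-like (80.5 to 415). Fyn, a kinase used by plexins and Eph receptors, was 34.1-fold higher in endothelial-like cells (25.2 to 47.4) and Vav3, an exchange factor downstream of Eph receptors, was 28.3-fold higher (20.1 to 41.1). Dpysl3 of the collapsin response family was the opposite. Dpysl3 had 385 CPM in stromal-like versus 7.87 CPM in endothelial-like cells (ratio 48.9, 40.1 to 60.1).

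Within the libraries, where fewer of all genes were called as well, the pathway list was read beside the same background. Between arterial-like and sinusoidal-like cells, 2 of 15 co-receptors were higher in arterial-like versus 1 in sinusoidal-like cells, and of 43 transducers 1 was higher in each, beside 6.1% and 3.59% of all genes. The co-receptor higher in sinusoidal-like cells was Flrt3, with 11.4 CPM in arterial-like versus 47.4 CPM in sinusoidal-like cells. Between osteolineage-like and stromal-like cells, 5 of 20 co-receptors were higher in osteolineage-like versus 4 in stromal-like cells, and of 43 transducers 2 were higher in osteolineage-like versus none in stromal-like cells, beside 4.97% and 5.67% of all genes. Gpc1, a glypican that binds slits, had 202 CPM in osteolineage-like versus 33.2 CPM in stromal-like cells (ratio 6.08, 5.22 to 7.07), Neo1 had 69.3 and 20.9 CPM (ratio 3.31, 2.60 to 4.19) and Nrp2 had 237 and 114 CPM (ratio 2.08, 1.84 to 2.34) in that order. Nrp1 was 2.16-fold higher in stromal-like cells (1.95 to 2.41) and Chl1 5.54-fold higher in stromal-like cells (3.34 to 9.95).

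The share of cells with at least 1 UMI was read after thinning every cell to 1000 UMIs, because depth differed between classes. Robo4 was seen in 19.4% (14.8 to 24.7) of arterial-like and 28.1% (26.6 to 29.7) of sinusoidal-like cells, or 50.3% and 65.7% without thinning. It was seen in 5 of 42 granulocyte-like cells of the EC library (11.9%, 3.98 to 25.6), and in none of 2905 stromal-like cells, which allows up to 0.127%. Sema3a was seen in 4.10% (2.07 to 7.23) of arterial-like and 19% (17.7 to 20.4) of sinusoidal-like cells, and in 4.76% (0.582 to 16.2) of the granulocyte-like cells. The wide granulocyte-like interval covers the arterial-like share of Sema3a, so these few cells cannot decide whether that share exceeds theirs. The arterial-like share is read neither as expression nor as its absence. Efnb2 was seen in 10.4% (7.06 to 14.7) of arterial-like and 1.14% (0.808 to 1.56) of sinusoidal-like cells, and in 2.38% (0.0603 to 12.6) of granulocyte-like cells, so the same holds for its sinusoidal-like share.

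Median depth before thinning was 3415.5 UMIs in arterial-like, 3405 in sinusoidal-like, 4935 in osteolineage-like and 4647 in stromal-like cells, and 9792 in granulocyte-like cells of the EC library. Slit2 was seen in 20.3% (15.6 to 25.8) of osteolineage-like and 2.75% (2.19 to 3.42) of stromal-like cells after thinning, against 49.8% and 12.3% before it. Granulocyte-like and erythroid-like cells of the same library gave 4.17% (0.105 to 21.1) and 7.14% (0.181 to 33.9), intervals that overlap both shares. Granulocyte-like cells held 17.7 CPM (5.76 to 41.4) of Slit2, but all 5 UMIs lay in 1 of 24 cells. This level, which does not describe the class, was below 182 CPM (161 to 207) in osteolineage-like cells. It was not separable from 29.4 CPM (26.6 to 32.4) in stromal-like cells by its counting interval, which takes the UMIs as independent. Sema7a was seen in 15.6% (11.4 to 20.7) of osteolineage-like and 2.48% (1.94 to 3.11) of stromal-like cells. Slit3 was seen in 7.42% (4.53 to 11.3) of osteolineage-like and 6.40% (5.54 to 7.35) of stromal-like cells, and in 3 of 24 granulocyte-like cells of the same library (12.5%, 2.66 to 32.4). Those granulocyte-like cells carried 6363 CPM of the stromal markers, and the share of cells with Slit3 could not be set above theirs, whereas the level of Slit3 was 62.5 CPM in stromal-like cells against 21.3 CPM (7.81 to 46.3) in those granulocyte-like cells.

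**Figure D5:**
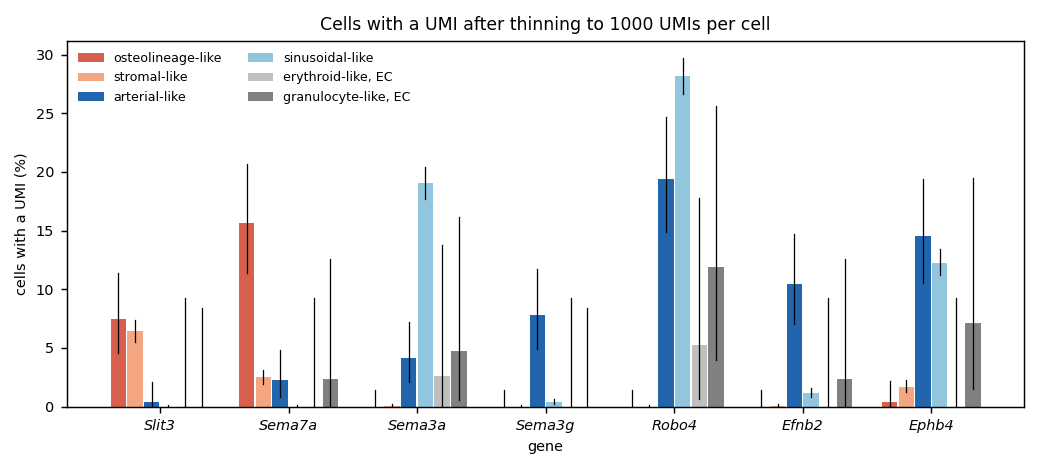
Share of cells with at least 1 UMI of 7 guidance genes after thinning each cell to 1000 UMIs, in 4 niche classes and 2 blood cell classes of the EC library, with lines for the 95% Clopper-Pearson interval. Sema3g and Efnb2 reach 7.84% and 10.4% of arterial-like cells. The wide lines of the blood cell classes come from 38 erythroid-like and 42 granulocyte-like cells.

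Some members with opposite patterns are neighbours in the genome. Efna1 (chromosome 3, 89271733 to 89281142, minus strand, GRCm38), Efna3 and Efna4 (89333390 to 89338028, minus strand) lie in a row, with 32.8 kb between Efna1 and Efna3 and 10.4 kb between Efna3 and Efna4. Efna1 was higher in endothelial-like and Efna4 in stromal-like cells, while Efna3 was at or under 1.46 CPM in stromal-, osteolineage-, arterial- and sinusoidal-like cells. Sema3b and Sema3f lie 72.3 kb apart on chromosome 9, with Sema3b higher in stromal-like and Sema3f higher in endothelial-like cells. Robo4 and Robo3 lie 0.553 kb apart on opposite strands of chromosome 9 but were no case of opposite patterns. Robo3 had no UMI in stromal-like and 13 UMIs, or 1.01 CPM, in endothelial-like cells, too few to measure. The 47 members under 20 CPM in all 4 classes included Plxna1, with 19.6 CPM in stromal-like cells, just under the limit, while Sema4b, at 25.1 CPM in stromal-like cells, lay above it.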

How the data were processed

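Droplet 3′ single-cell RNA libraries of LepR-Cre;tdTomato+ bone marrow cells and of bone marrow endothelial cells were analysed, 1 of each. The authors deposited a matrix of UMI counts per gene and barcode and a table that gives the library of each retained cell. The submitters' processing notes name the mm10 build, Seurat 2.3.4 and Cell Ranger 2.1.1, with no role for each. How reads were assigned to strands or to overlapping genes is not given in the sources used here. The 4250 LepR_tdT and 4536 EC cells of the table, each with at least 201 genes, were used as deposited.

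Computations used scanpy 1.11.5 and igraph 0.11.9 under Python 3.11.15, with pandas 2.3.3, matplotlib 3.10.9, scipy 1.17.1 and numpy 2.4.6. Cells of both libraries were clustered together, with no correction for library: UMIs scaled to 10000 per cell and logged, 2000 most variable genes less the guidance, pathway and mitochondrial genes and tdTomato, 30 principal components, 15 neighbours and Leiden clustering at resolution 0.5, taking the best of 20 seeds. A cluster took the name with the most markers among its 10 leading genes and then the largest share of raised markers, of which it needed at least 3. No own marker led the stromal and endothelial clusters, which were named from raised markers alone. It stayed unnamed where its median depth was, multiplied by 3, still under that of its library with no own marker leading, or where at least 3 mitochondrial genes led it. Raw UMIs were then summed per class and given as CPM. The floor was 3 UMIs per class. With 1 library per population no test across samples was possible and no p-value is given. A difference was called from counting error alone. Doublets could not be scored, since Scrublet marked 1 LepR_tdT cell and 0 EC cells, so classes were also read without cells carrying markers of another type. Free RNA was read from droplets with fewer than 100 UMIs.

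Guidance genes named with their values reached 20 CPM in stromal-, osteolineage-, arterial- or sinusoidal-like cells. The members, the marker and pathway lists and the naming rule were chosen with earlier results of these data known, and the split of the vessel classes and the separate Cxcl5 and Kit cluster were set after the clusters had been seen. Alternatives were other scalings (TMM, median ratio), clustering resolution, fold and UMI limits, subtraction of free RNA, mixed cells or shared barcodes left out, and the endothelial-like cells of the LepR_tdT library. Gene positions are from GENCODE M21 on GRCm38 and promoters from RefSeq on GRCm38.p6. The scripts were tested on simulated counts.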

Additional observations from a re-analysis of the deposited data

Results flagged for a closer look

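Sema4a, a transmembrane semaphorin that the main classes hardly carried, was seen in cells outside the comparisons. It had 53.5 CPM (25 UMIs) in the 43 granulocyte-like cells of the EC library and 63.9 CPM (18 UMIs) in the 24 granulocyte-like cells of the LepR_tdT library, against 0.430 CPM in stromal-like cells and no UMI in arterial- or sinusoidal-like cells. The unnamed cells of each library, which entered no comparison, held 2 further members above the level of its largest class. Plxnb1 had 40.3 CPM (23 UMIs, 25.6 to 60.5) in the 684 unnamed LepR_tdT cells, against 12.2 CPM in stromal-like cells. Plxnd1 had 393 CPM (200 UMIs, 341 to 452) in the 738 unnamed EC cells, against 310 CPM in endothelial-like cells and 297 CPM in the free RNA of that library. The unnamed cells were shallow, with medians of 515 UMIs in LepR_tdT and 570.5 UMIs in EC. They were also mixed. Megakaryocyte markers summed to 13816 CPM in the unnamed LepR_tdT cells, against 33.4 CPM in stromal-like cells. In the unnamed EC cells they summed to 1129 CPM, against 45.4 CPM in endothelial-like cells. The part of depth and of such other RNA in these levels was not tested.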

How the results depend on the processing

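No paired analysis was possible because each population has 1 library. Every called member was recomputed under each alternative. For stromal-like over endothelial-like cells, 34 called members kept the call in 466 cases, lost it in 31 and changed sign in 13. The numbers were 89 kept and 2 lost for the 7 of arterial-like over sinusoidal-like cells, 89 and 9 for the 7 of osteolineage-like over stromal-like cells, and 328 and 21 with 1 change of sign for the 35 of all cells of LepR_tdT over EC. Some kept cases in every comparison were fixed in advance. The limits of 10 UMIs and of 1.5-fold only loosen the call and could not lose one. Leaving out Scrublet doublets removed 1 LepR_tdT cell and 0 EC cells, so it hardly changed the counts. With at least 100 UMIs per member, 9 members were higher in stromal-like than endothelial-like cells and the median log2 ratio turned to -0.59, and over all cells 11 were higher in LepR_tdT with a median of -0.61. These alternatives test fewer members by construction. Against the 59 endothelial-like cells of the LepR_tdT library, stromal-like cells were higher in 5 members and lower in 8. The median was -0.75, but its sign is not read, because of the floor described next. The 13 changes of sign in single members came from setting 0 to 2 UMIs of these cells to the floor of 3 UMIs, which is 15.3 CPM there. The log2 ratios at that floor were -0.14 for Efna2, -0.75 for Efna4, -1.65 for Efnb3, -1.22 for Epha3, -2.42 for Ephb3, -2.28 for Ephb6 and Unc5c, -3.57 for Plxna3, -0.33 for Plxnb1, -0.20 for Robo1, -2.74 for Robo2, -2.07 for Sema3b and -1.59 for Sema6c, so this alternative could not test them. Over all cells the free RNA share estimated from erythroid and granulocyte genes was 26.0% in LepR_tdT and 54.1% in EC. Those sums include the erythroid-like and granulocyte-like cells, so the estimate is no measure of free RNA there. The cases of this alternative over all cells, counted above, therefore test no call. Sema4d turned to -1.02 under it, and the cause was not tested. At a fold of at least 4, 12 members were higher in LepR_tdT over all cells. The number of members higher in stromal-like than osteolineage-like cells was 1 at resolution 1.0, under TMM and median ratio scaling, at a fold of at least 4, with at least 100 UMIs and without mixed cells. It was 5 with free RNA subtracted, where the share of free RNA estimated from erythroid and granulocyte genes was 26.2% in osteolineage-like and 2.18% in stromal-like cells. Estimated from granulocyte genes alone the shares were 0.759% and 0.796%, and the counts were then 5 higher in osteolineage-like and 2 higher in stromal-like cells. A check of arterial cells by a gate on markers was not run, since it held 4 cells. Members under 20 UMIs in a pair of classes could not be compared at this depth.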
